A study of Mus musculus with 8 samples.

Results

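The 8 genes described here encode regulators of G protein signalling (RGS): Rgs1, Rgs2, Rgs3, Rgs10, Rgs14, Rgs16, Rgs18 and Rgs19. They were chosen by gene symbol, and all 8 were found among the 14042 genes measured in each of 8 mouse RNA sequencing libraries. The libraries fall into 4 groups of 2. TFH KO and TFH WT are T follicular helper (TFH) cells, that is, CXCR5+ PD1hi CD4 cells of donor origin, taken by flow sorting from spleens of (bxd)F1 mice on day 7. The F1 mice had received 10000000 CD8-depleted splenocytes from donors that lacked the complement receptor C5aR1 (C5aR1-/-, here KO) or from wild type (WT) donors. Naive KO and naive WT are CD4 T cells sorted as CD62Lhi CD44lo and labelled C5aR1-/- and WT; no transfer is named for them. An effect of transfer into an F1 host and an effect of TFH identity therefore cannot be told apart. The deletion is not described as limited to T cells, and the labels state neither age nor whether mice were pooled. The study asks how C5aR1 acts on TFH differentiation in chronic graft-versus-host disease.

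RGS proteins bind activated G protein alpha subunits and speed up the hydrolysis of their GTP, which ends the signal of a G protein-coupled receptor. In lymphocytes this shortens the response to chemokines and to lipid attractants, and so bears on where a cell moves within the spleen and lymph nodes. C5aR1 itself is a receptor of this class and signals largely through inhibitory G proteins. Rgs1, Rgs2, Rgs16 and Rgs18 are small proteins built of little more than the RGS domain, whereas Rgs14 also carries Ras-binding and GoLoco regions. Several family members are induced when lymphocytes are stimulated.

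Levels are the log2 values that the authors deposited, and a difference is a difference of group means on that scale ± its standard error, each group having n = 2. The depth behind the values is unknown. Tests are those of limma over all 14042 genes, with Benjamini-Hochberg adjusted p-values and a call below 0.05. Nothing in the labels says that replicate libraries are from separate animals, so the p-values measure the spread between these libraries, which may be technical. It is not stated whether values were scaled by gene length, so differences are given between groups for a given gene. Levels summed over a marker list weight its genes by their deposited values, and are compared only between libraries. The place of Rgs18 among the deposited values carries the same limit. In such bulk samples, fewer cells that express a gene and less RNA per cell cannot be told apart.

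The libraries were checked against markers of the labelled cells. All 9 CD4 T cell markers, among them Cd3e and Cd4, were present in every library, with summed levels of 17.87 to 18.04 in TFH and 18.12 to 18.23 in naive libraries. Of 10 TFH markers, 4 rose in KO and 5 in WT between TFH and naive libraries, and none fell. Il21, which encodes a cytokine made by TFH cells, was at 9.58 to 10.40 in TFH and 7.31 to 8.19 in naive libraries. Transcripts of 2 sort markers went against the labels: Cxcr5 was at 10.85 to 11.56 in TFH and 11.56 to 12.45 in naive libraries, and Cd44 at 11.97 to 12.11 in TFH and 12.53 to 13.04 in naive libraries. B cell genes were higher in replicate 2 than in replicate 1 of both TFH groups, but only TFH KO replicate 2 was well above the naive libraries. The summed level of 15 B cell markers was 15.49 in TFH KO replicate 2 and 14.14 in TFH WT replicate 2, against 12.21 and 12.65 in replicate 1 of TFH KO and of TFH WT and 12.81 to 14.09 in the naive libraries. Only naive KO replicate 1 expressed Xist, which silences an X chromosome, at a high level, 14.61, against 4.44 to 5.56 elsewhere, and had the Y-linked Ddx3y at 5.67, against 12.54 to 13.16 elsewhere, so it differs from the other libraries in sex.

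Of the 8 RGS genes, 4 lie on chromosome 1 in the GENCODE vM21 annotation of GRCm38, the build that mm10 names. Rgs2 (chr1:143999338-144004161, minus strand), Rgs1 (chr1:144242296-144249242, minus strand) and Rgs18 (chr1:144752683-144775435, minus strand) lie in the same stretch. The family members Rgs13 and Rgs21 lie between them in the annotation and are not among the genes measured here. Rgs2 and Rgs1 are 238.1 kb apart, and 503.4 kb separate Rgs1 from Rgs18. Rgs16 (chr1:153740349-153745468, plus strand) lies 8.96 Mb beyond Rgs18 on the same chromosome. The others are Rgs19 (chr2:181688419-181693977, minus strand), Rgs3 (chr4:62559847-62704001, plus strand), Rgs10 (chr7:128373621-128418758, minus strand) and Rgs14 (chr13:55369732-55384687, plus strand).

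Promoter windows of RefSeq, on GRCm38, matched 5 of the 8 genes by symbol: Rgs2, Rgs3, Rgs10, Rgs16 and Rgs19. Rgs2 and Rgs16 are shown because both rose in TFH libraries, and the first window of Rgs3 as an example from a gene that was not called. Each line gives the 250 bases before the transcription start, 5′ to 3′ on the gene's strand: chr1:144004150-144004399 (minus) for Rgs2, chr1:153740103-153740352 (plus) for Rgs16 and chr4:62559597-62559846 (plus) for Rgs3. Capitals mark matches, on either strand, to the motifs searched. These were the AP-1 motif TGANTCA, the larger part of a cAMP response element (CRE), spelled TGACGT, and the kappaB core, spelled GGANTTC. The TATA motif was searched as TATAAA. The GC box was searched as GGGCGG, and the last motif was CCAAT.
Rgs2: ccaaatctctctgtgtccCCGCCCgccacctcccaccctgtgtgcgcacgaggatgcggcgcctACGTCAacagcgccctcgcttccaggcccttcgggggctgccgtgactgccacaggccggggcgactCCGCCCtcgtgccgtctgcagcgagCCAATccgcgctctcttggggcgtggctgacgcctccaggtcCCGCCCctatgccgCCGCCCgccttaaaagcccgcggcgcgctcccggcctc
Rgs16: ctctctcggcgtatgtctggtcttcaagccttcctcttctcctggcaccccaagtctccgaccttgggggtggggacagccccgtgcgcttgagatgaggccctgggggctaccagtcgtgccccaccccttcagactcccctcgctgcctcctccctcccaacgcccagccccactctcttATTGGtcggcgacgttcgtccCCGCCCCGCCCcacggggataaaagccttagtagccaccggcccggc
Rgs3: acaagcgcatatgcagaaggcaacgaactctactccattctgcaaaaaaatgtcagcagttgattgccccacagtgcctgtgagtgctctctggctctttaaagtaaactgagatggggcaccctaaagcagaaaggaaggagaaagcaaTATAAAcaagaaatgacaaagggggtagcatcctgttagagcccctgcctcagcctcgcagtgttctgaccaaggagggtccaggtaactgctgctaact
The Rgs2 window held 1 CRE match, 186 to 181 bases before the start, 4 GC boxes and 1 CCAAT box. The Rgs16 window held 2 GC boxes, which overlap by 1 base, and 1 CCAAT box. The Rgs3 window held 1 TATA motif. Of 32851 windows of the same length in all genes, 6.47% held the CRE letters, 32.7% a GC box, 33.8% CCAAT and 12.4% TATAAA. The AP-1 and kappaB letters, present in 6.75% and 12.1% of all windows, were not in these 3 windows. GC content was 72.4% for Rgs2, 66.4% for Rgs16 and 48.4% for Rgs3, against a median of 52.4% over all windows. High GC content and GC boxes were not limited to the genes that rose. Among windows of genes that were not called, that of Rgs10 had 76.4% GC and 2 GC boxes, and the second window of Rgs3 had 56.8% GC and 1 GC box. The 3 windows of Rgs19 had 64.8%, 74.8% and 54.4% GC, and the first and second of them held GC boxes and the kappaB letters.

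TFH libraries were compared with naive libraries in each genotype, to ask which RGS genes distinguished sorted, transferred TFH cells from naive CD4 cells. In both genotypes 3 of the 8 genes rose: Rgs1, Rgs2 and Rgs16. None of the 8 fell, and Rgs3, Rgs10, Rgs14, Rgs18 and Rgs19 were not called. The background was high in these comparisons: of all genes, 19.5% were called in KO (9.12% higher and 10.4% lower) and 26.3% in WT (12.6% higher and 13.7% lower). The median difference of the 8 genes was 0.00 in KO and 0.08 in WT, against -0.01 in KO and 0.01 in WT for all genes.

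Rgs2 limits signalling through the Gq class of alpha subunits and was originally found as a gene switched on in stimulated blood cells. It was at 13.75 and 13.70 in TFH KO libraries, against 10.75 and 10.66 in naive KO libraries. In WT it was at 13.55 and 13.63 in TFH and at 10.78 and 10.85 in naive libraries. The 4 TFH values lay close together, far above the 4 naive values, which were equally close. The difference was 3.02 ± 0.10 in KO (8.12-fold, adjusted p = 6.94e-09) and 2.78 ± 0.10 in WT (6.87-fold, adjusted p = 8.97e-09), n = 2 libraries per group in the limma fit. By absolute size the Rgs2 difference ranked 64 in KO and 137 in WT among all genes. It was 3.07 in KO with naive KO replicate 1 left out. With replicate 2 of both TFH groups, the higher in B cell genes, left out it was 3.05 in KO and 2.74 in WT. The Rgs2 difference was called each time.

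Rgs16, a regulator of Gi and Gq class subunits that restrains chemokine-driven migration of T cells in mice, had the largest difference of the 8 in WT. It was at 12.43 and 12.64 in TFH KO libraries, against 9.50 and 10.41 in naive KO libraries. In WT it was at 12.97 and 12.79 in TFH and at 10.11 and 9.37 in naive libraries. No TFH value came within 2.02 of a naive value, and the naive libraries were spread more widely than the TFH libraries. The difference was 2.58 ± 0.39 in KO (5.98-fold, adjusted p = 0.0115) and 3.14 ± 0.39 in WT (8.79-fold, adjusted p = 0.00466) by limma. The KO call was lost without TFH KO replicate 1 (2.68, adjusted p = 0.0534) or TFH KO replicate 2 (2.48, adjusted p = 0.0836). TFH KO replicate 2 and TFH WT replicate 2 had higher B cell genes than replicate 1. Without both of them, neither genotype was called for Rgs16 (2.48 in KO and 3.23 in WT). Without naive KO replicate 1 the KO difference was 2.12 (adjusted p = 0.0154).

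Rgs1, which dampens chemokine responses of B and T cells and is induced by lymphocyte stimulation, was at 13.40 and 13.37 in TFH KO libraries, against 11.21 and 11.84 in naive KO libraries. In WT it was at 13.32 and 13.51 in TFH and at 11.62 and 11.37 in naive libraries. The 4 TFH values again lay above all 4 naive values, with a gap of 1.48. The difference was 1.86 ± 0.19 in KO (3.63-fold, adjusted p = 0.000409) and 1.92 ± 0.19 in WT (3.79-fold, adjusted p = 0.000287) by limma. Rgs1 remained called with naive KO replicate 1 left out (1.54 in KO) and with the same TFH libraries left out (1.88 in KO and 1.82 in WT).

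**Figure D1:**
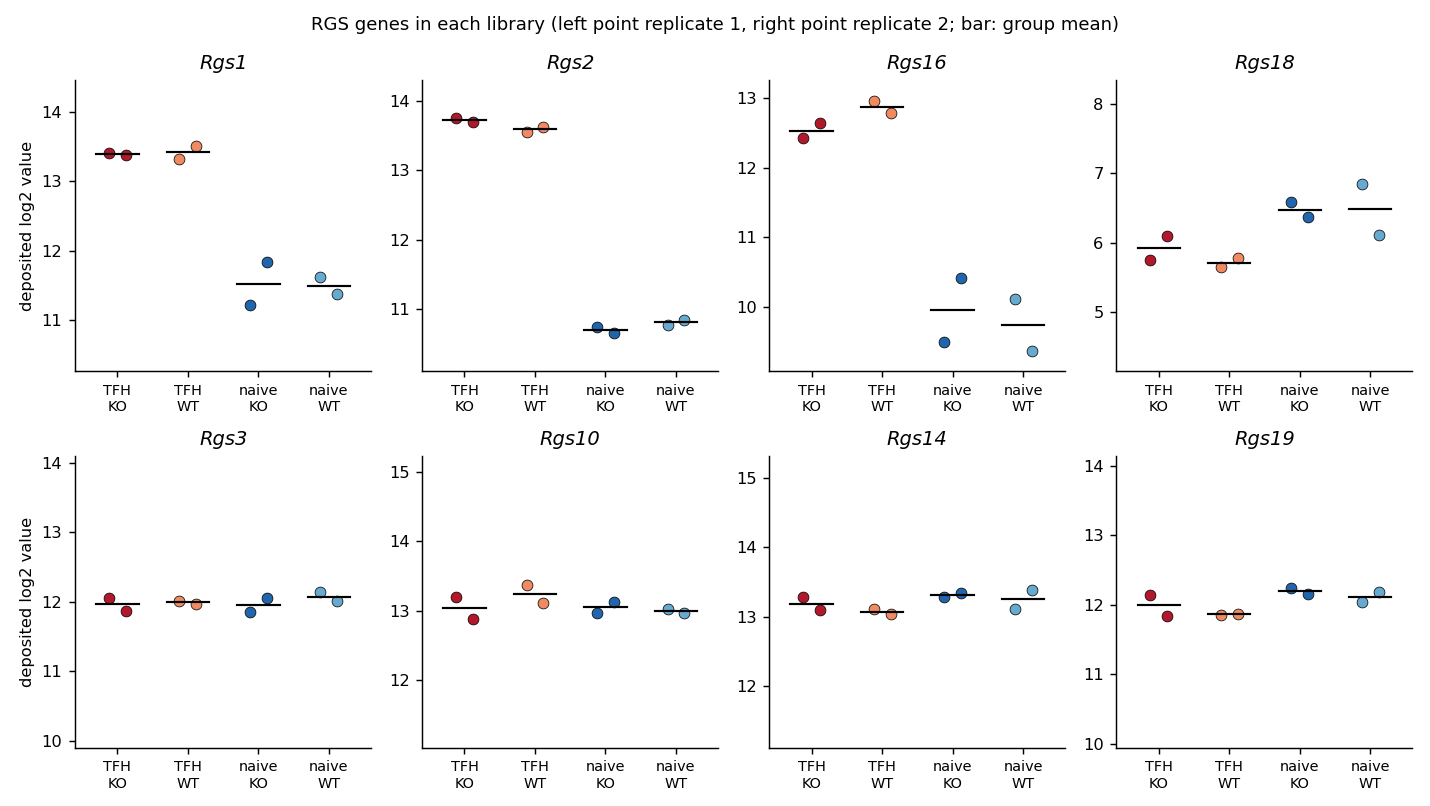
Deposited log2 values of the 8 RGS genes in each library, with groups on the x axis, 2 points per group and a bar at the group mean; every panel spans the same number of log2 units. Rgs1, Rgs2 and Rgs16 are higher in all 4 TFH libraries than in any naive library, Rgs18 is slightly lower, and the groups overlap for Rgs3, Rgs10, Rgs14 and Rgs19.

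Rgs18, known for its role in platelets and other cells of the blood-forming lineages, was near the low end of the deposited values. It was at 5.76 and 6.10 in TFH KO libraries, against 6.59 and 6.37 in naive KO libraries. In WT it was at 5.65 and 5.78 in TFH and at 6.85 and 6.12 in naive libraries. All TFH values lay below all naive values, but by a gap of 0.02 only, and the difference was not called (-0.55 ± 0.32 in KO, adjusted p = 0.269, and -0.77 ± 0.32 in WT, adjusted p = 0.0992, limma). Without naive WT replicate 2 it was called in WT (-1.14, adjusted p = 0.0483). The highest Rgs18 value was in naive WT replicate 1. The summed level of the 17 myeloid markers was also highest there, at 16.14, against 14.05 to 14.69 in TFH and 14.94 to 15.18 in the other naive libraries. No deposited value was below 1.16, so the values cannot show that a myeloid marker was absent from a library. Of 12 platelet and megakaryocyte markers 4 were measured, of which Itgb3 (-0.84 in KO and -1.21 in WT) and Clec1b (-1.85 in KO and -1.70 in WT) fell in both genotypes. The other 2, Itga2b (-0.05 in KO and -0.07 in WT) and Gp1ba (-0.47 in KO and 0.00 in WT), were not called. The part of such cells in the Rgs18 values was not tested.

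The remaining members varied within narrow ranges. Rgs10, a small regulator of Gi class subunits, was at 13.20 and 12.88 in TFH KO, 13.37 and 13.11 in TFH WT and 12.97 to 13.13 in naive libraries. In each TFH group the lower Rgs10 value was that of replicate 2, the library with the higher B cell genes. Rgs3 and Rgs14 had the same order, and the other RGS genes did not. The Rgs10 difference was -0.01 in KO (95% interval -0.29 to 0.28) and 0.24 in WT (-0.05 to 0.52). Rgs14, a scaffold that also binds Ras-like proteins, was at 13.04 to 13.28 in TFH and 13.12 to 13.39 in naive libraries. The Rgs14 difference was -0.12 in KO (-0.37 to 0.13) and -0.18 in WT (-0.44 to 0.07). For both genes the TFH and naive ranges overlap.

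Rgs3, which acts on Gi and Gq class subunits, was at 11.87 to 12.06 in TFH and 11.86 to 12.14 in naive libraries. Its difference was 0.00 in KO (95% interval -0.24 to 0.25) and -0.08 in WT (-0.32 to 0.17). Rgs19, also known as GAIP, a regulator of Gi class subunits, was at 11.84 to 12.14 in TFH and 12.04 to 12.24 in naive libraries. The Rgs19 difference was -0.21 in KO (-0.46 to 0.04) and -0.25 in WT (-0.50 to -0.0011), and neither was called by limma (adjusted p = 0.229 and 0.13). The ranges of both genes overlap between TFH and naive libraries.

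**Figure D2:**
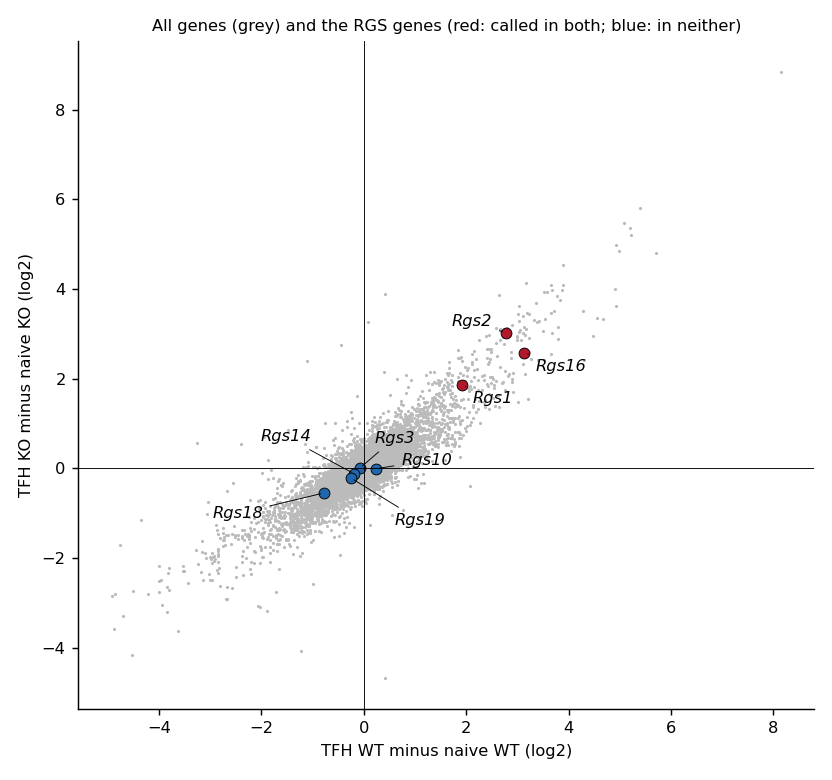
Difference of TFH KO minus naive KO (y axis, log2) against TFH WT minus naive WT (x axis, log2) for every gene (grey points) and for the 8 RGS genes (larger points); these comparisons share no library. Rgs1, Rgs2 and Rgs16 lie far out along the upper right, from 1.86 to 3.14, while the others lie between -0.77 and 0.24.

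Among all genes, 18.2% were higher in all 4 TFH libraries than in any naive library, and 20.3% were lower. Of the 8 RGS genes 3 showed the first pattern and 1, Rgs18, the second. All 3 that rose are on chromosome 1, as is Rgs18. Genes near them were listed after these values had been seen. Within 500 kb of Rgs1 or Rgs2, 4 other genes were measured: Cdc73, Glrx2, Trove2 and Uchl5. Uchl5, which encodes a deubiquitinase of the proteasome, rose by 0.54 ± 0.12 in WT (limma adjusted p = 0.00749) and was not called in KO (0.09 ± 0.12). The other 3 lay between -0.13 and 0.06 and were not called. Of 8 genes within 500 kb of Rgs16 none rose in either genotype. Among those that fell in WT, Npl fell by 0.84 ± 0.21 and Glul fell by 0.67 ± 0.18 (limma adjusted p = 0.0123 and 0.0248), and neither was called in KO (-0.32 ± 0.21 for Npl and -0.25 ± 0.18 for Glul).

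The KO and WT groups were compared within TFH and within naive libraries, to ask whether loss of C5aR1 altered the RGS genes. None of the 8 was called by limma in either comparison, where 0% of all genes were called in TFH and 0.0712% in naive libraries (0.0356% higher and 0.0356% lower), and none had an unadjusted p below 0.05. In TFH libraries the differences ran from -0.34 for Rgs16 to 0.22 for Rgs18, and in naive libraries from -0.12 for Rgs3 to 0.21 for Rgs16. Over all genes, 506 had an unadjusted p below 0.05 between TFH KO and TFH WT and 355 between naive KO and naive WT.

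The precision differed between the genes that rose. For Rgs2 the difference of TFH KO minus TFH WT was 0.13 (95% interval -0.08 to 0.34), with both KO values above both WT values. For Rgs1 it was -0.03 (-0.47 to 0.41). For Rgs16 it was -0.34 (-1.34 to 0.65), with both KO values below both WT values. Such a separation of 2 against 2 libraries has a two-sided p of 0.33 in an exact permutation test. None of the 10 TFH markers had a positive difference of TFH KO minus TFH WT (median -0.46, none called). The interval is wide for Rgs16 and narrow for Rgs2. In naive libraries the corresponding differences were -0.11 (-0.32 to 0.10) for Rgs2, 0.03 (-0.41 to 0.47) for Rgs1 and 0.21 (-0.78 to 1.21) for Rgs16.

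The interaction, the TFH minus naive difference in KO less that in WT, asks whether the response of an RGS gene depended on C5aR1. It was called for none of the 8 genes by limma, against 0.0142% of all genes, or 2 (0.00712% positive and 0.00712% negative), and no member had an unadjusted p below 0.05, against 614 of all genes. It was 0.24 ± 0.14 for Rgs2, -0.56 ± 0.55 for Rgs16, -0.06 ± 0.27 for Rgs1 and -0.25 ± 0.18 for Rgs10. The 95% intervals ran from -0.05 to 0.54 for Rgs2, from -1.96 to 0.85 for Rgs16 and from -0.68 to 0.56 for Rgs1.

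**Figure D3:**
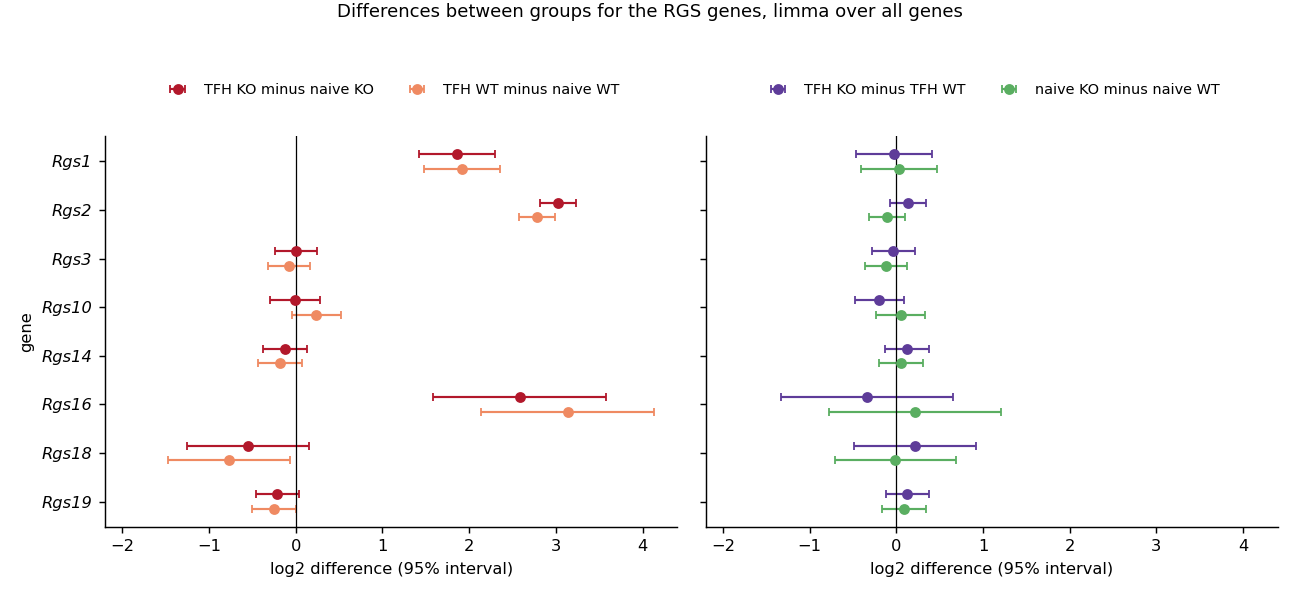
Log2 differences with 95% intervals (x axis) for the 8 RGS genes (y axis): TFH minus naive in KO and in WT on the left, and KO minus WT in TFH and in naive libraries on the right. The intervals of Rgs1, Rgs2 and Rgs16 lie above 0 on the left, and all intervals on the right include 0.

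The 3 genes that rose were not alike in how they varied among the naive libraries. Rgs2 differed by at most 0.19 among them. Rgs16 was at 10.41 in naive KO replicate 2 and 10.11 in naive WT replicate 1, against 9.50 in naive KO replicate 1 and 9.37 in naive WT replicate 2. Rgs1 had the same pair on top, at 11.84 and 11.62, against 11.21 and 11.37. So did Rgs3 (12.05 and 12.14, against 11.86 and 12.01) and Rgs10 (13.13 and 13.03, against 12.97 in both), by small margins, and neither was called. In all, 4 of the 8 RGS genes had this pair on top, against 15.2% of all genes, and 1 had the pair below. The pair was picked with the Rgs1 and Rgs16 values known, and both genes are in that count. The count is therefore no test against the share of all genes. These 2 libraries also had the higher values of Pdcd1, the gene of the receptor PD1, at 11.97 and 11.84, against 10.96 and 10.80, and of Icos, a costimulatory receptor, at 12.79 and 12.74, against 12.32 and 12.04.

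The same 2 naive libraries were above the other 2 in 8 of 10 TFH cell markers and in none of 7 naive T cell markers. They were below the other 2 in 5 of the 7 naive markers, among them Ccr7 and Il7r. They were also above the other 2 in 8 of 17 myeloid markers, 2 of 11 NK and CD8 T cell markers, 2 of 9 CD4 T cell markers and none of 15 B cell markers. Over all genes, 15.2% were higher and 20.8% lower in both of these libraries. The summed level of the TFH markers was 14.95 and 14.91 in them, against 14.42 and 14.26 in the other naive libraries. It was 14.76 to 15.43 in TFH libraries, so the sums overlap. The mean log2 values of the same markers did not overlap. In every TFH library that mean was above the 10.8 and 10.68 of these 2 naive libraries. One of these libraries is KO and the other WT. This pattern was picked after the values had been seen. The part of activated or myeloid cells within the naive sort in the Rgs1 and Rgs16 values was not tested.

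**Figure D4:**
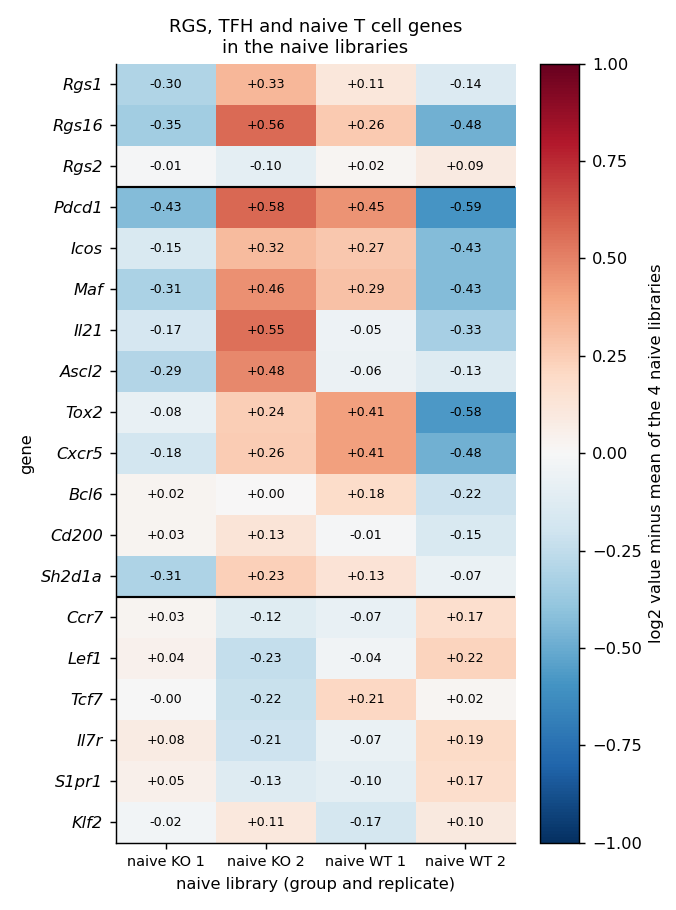
Log2 value minus the mean of the 4 naive libraries (colour and printed number) for 3 RGS genes, 10 TFH markers and naive T cell markers (rows) in each naive library (columns). Rgs1 and Rgs16 are higher in naive KO replicate 2 and naive WT replicate 1, as are Pdcd1, Icos and Maf, while Rgs2 stays within 0.10 of its mean.

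Genes whose pattern over the 8 libraries was most like that of each riser were found by Pearson's r among 10761 other genes. The libraries fall into TFH and naive sets, so r mainly reflects the gap between them, and 9.12% to 9.78% of these genes had r above 0.9. For Rgs2 the closest were Maff (r = 0.9996), a small Maf transcription factor, Nr4a1 (0.9992), a nuclear receptor induced by T cell receptor signals, and Csrnp1 (0.9987), a nuclear protein gene. Nr4a1 was at 14.53 and 14.38 in TFH KO, 14.22 and 14.29 in TFH WT and 11.76 to 11.86 in naive libraries. For Rgs16 the closest were Ctla4 (0.9989), the inhibitory receptor of activated T cells, Rilpl2 (0.9961) and Synpo (0.9959). Ctla4 was at 14.10 and 14.34 in TFH KO and 14.53 and 14.49 in TFH WT libraries. In naive libraries Ctla4 was at 11.88 and 12.50 in KO and 12.24 and 11.80 in WT, with the same pair on top as for Rgs16. These values are among those by which Ctla4 was picked, so the shared order is no separate result. For Rgs1 they were Ccrl2 (0.9972), a chemokine-like receptor, Nfil3 (0.9971), a transcription factor, and Plk3 (0.9970), a stress-responsive kinase.

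The wider G protein pathway was described from lists of its parts. Among 13 further genes with an RGS or related domain none rose in either genotype. Rgs11 at -0.57 ± 0.15 and Snx14 at -0.36 ± 0.12 fell in WT (limma adjusted p = 0.0173 and 0.0439), and none was called in KO, where Axin1, a scaffold of Wnt signalling, had the smallest p at 0.29 ± 0.12 (adjusted p = 0.105). The list's median difference was 0.04 in KO and -0.05 in WT. Between KO and WT, within TFH or within naive libraries, no gene of any of the 7 pathway lists was called by limma.

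Of 11 G protein alpha subunit genes, the direct partners of RGS proteins, 2 rose and 3 fell in KO, and 3 rose and 2 fell in WT. Gnaq, the alpha subunit that couples receptors to phospholipase C and a target of Rgs2, rose by 0.93 ± 0.21 in KO and 0.97 ± 0.21 in WT (limma adjusted p = 0.0111 and 0.00684). It was at 9.87 and 10.29 in TFH KO and 10.17 and 10.38 in TFH WT, against 9.06 and 9.24 in naive KO and 9.60 and 9.0 in naive WT libraries. Gna13 rose by 0.34 ± 0.11 in KO and 0.57 ± 0.11 in WT. Gna15 fell by 0.80 ± 0.23 in KO and 0.74 ± 0.23 in WT. Gna11 fell by 0.37 ± 0.11 in KO and was not called in WT (-0.24 ± 0.11), and Gnal fell by 0.47 ± 0.12 in WT and was not called in KO (-0.09 ± 0.12). Of the inhibitory subunits, Gnai2 was not called (-0.21 ± 0.10 in KO and -0.07 ± 0.10 in WT), and Gnai3 fell by 0.38 ± 0.11 in KO and was not called in WT (-0.19 ± 0.11).

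Of 28 receptors for chemokines and lipids, 5 rose and 9 fell in KO, and 6 rose and 13 fell in WT, with a median difference of -0.76 in both, against -0.01 in KO and 0.01 in WT for all genes. Myeloid markers and NK and CD8 T cell markers were mostly lower in TFH libraries as well. The 15 B cell markers had a median difference of -0.17 in KO and -0.09 in WT, with none called. The median difference of 17 myeloid markers was -1.25 in KO and -2.37 in WT (2 and 4 fell, 1 rose in each), and that of 11 NK and CD8 T cell markers was -0.59 in KO and -1.29 in WT (4 and 5 fell, none rose). The summed level of the NK and CD8 T cell markers was 12.42 to 13.23 in TFH and 13.50 to 13.84 in naive libraries. Ccr3, an eosinophil chemokine receptor with the most negative difference of the list (-3.06 ± 0.87, not called, in KO and -3.95 ± 0.87, called, in WT), was highest in naive WT replicate 1, at 11.60, as the myeloid markers were. The part of such cells in the receptor values was not tested. Gpr183, the oxysterol receptor that guides T cells to the edge of the follicle, rose by 1.24 ± 0.09 in KO and 0.92 ± 0.09 in WT. Cxcr4, the receptor for CXCL12, rose by 1.07 ± 0.12 in KO and 0.46 ± 0.12 in WT (limma adjusted p = 9.36e-05 and 0.0134). Lpar6 fell by 1.66 ± 0.13 in KO and 1.78 ± 0.13 in WT, and Gpr34 fell by 2.11 ± 0.21 in KO and by 2.14 ± 0.21 in WT. S1pr1, the egress receptor, fell by 0.59 ± 0.12 in WT and was not called in KO (-0.32 ± 0.12). Cxcr5 (-1.04 ± 0.34 in KO and -0.57 ± 0.34 in WT) and Ccr7 (0.33 ± 0.12 and -0.03 ± 0.12) were called in neither genotype.

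Among effectors, Plcb1, a phospholipase C driven by Gq class subunits, rose by 1.18 ± 0.22 in KO and 1.54 ± 0.22 in WT (limma adjusted p = 0.00339 and 0.000514). Dock2, which activates Rac downstream of chemokine receptors, fell by 0.47 ± 0.11 in KO and 0.43 ± 0.11 in WT, and Prex1 fell by 0.38 ± 0.10 in WT and was not called in KO (-0.23 ± 0.10). Of 20 effector genes 1 rose and 1 fell in KO, and 1 rose and 3 fell in WT. Of 7 receptor kinase and arrestin genes, Arrb1, the beta-arrestin that uncouples active receptors, fell by 0.70 ± 0.14 in KO and 0.94 ± 0.14 in WT, and Grk4 rose by 0.45 ± 0.14 in KO and was not called in WT (0.39 ± 0.14). Of 5 other regulators, Ric8a, a chaperone of alpha subunits, fell by 0.45 ± 0.12 in KO and 0.48 ± 0.12 in WT. Ric8b rose by 0.39 ± 0.11 in KO and was not called in WT (0.20 ± 0.11), and Gpsm2, a GoLoco protein, rose by 0.73 ± 0.15 in WT and was not called in KO (0.28 ± 0.15). Of 9 beta and gamma subunit genes none rose, and Gngt2 fell by 0.58 ± 0.16 in WT and was not called in KO (-0.39 ± 0.16).

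**Figure D5:**
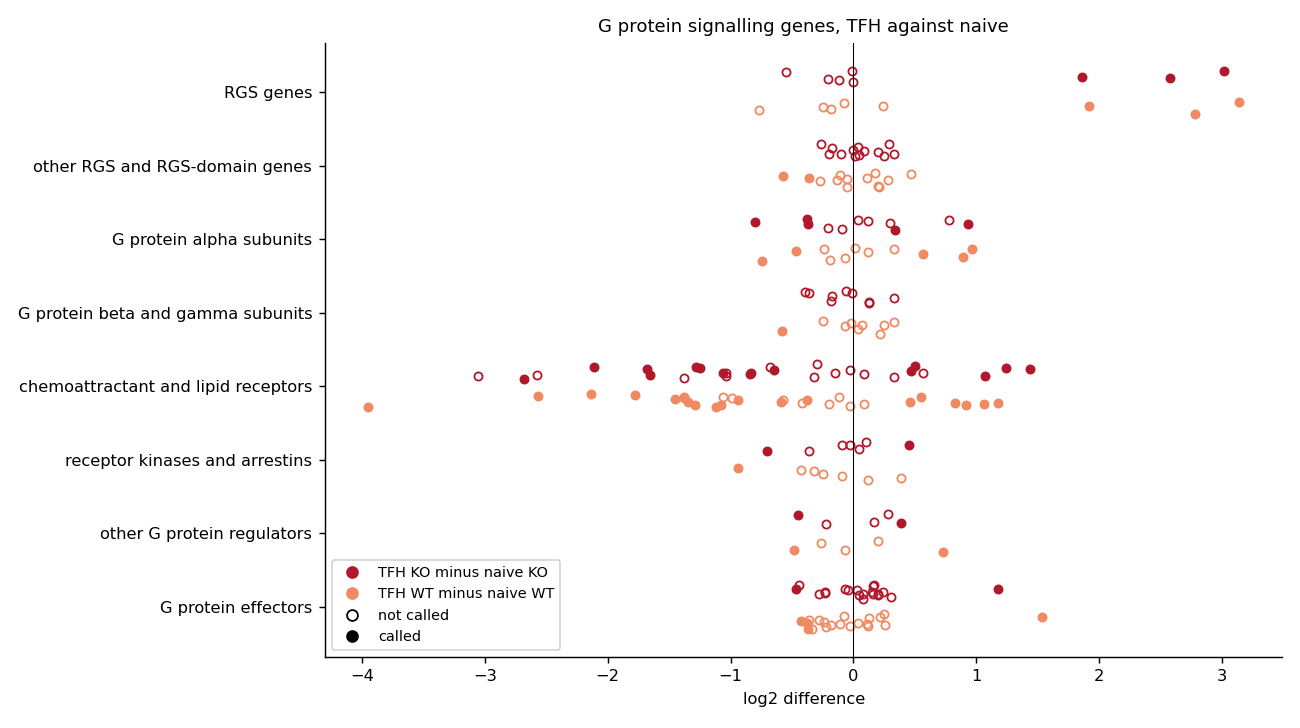
Log2 differences (x axis) of TFH KO minus naive KO and TFH WT minus naive WT for the genes of each part of the G protein pathway (rows), with 1 point per gene and filled points for called genes. Rgs1, Rgs2 and Rgs16 lie to the right of every other gene shown, and chemoattractant and lipid receptors spread from -3.95 to 1.44.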

How the data were processed

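Gene expression was measured in 8 libraries made from total RNA and read as single ends of 51 bp, per the labels' protocols. BWA and mm10 are named in the submitters' processing notes, with no version or role. How reads were counted, on which annotation, and how values were filtered and normalized is not given in the sources used here. Each library has a table of log2 values that the authors deposited, from 1.16 to 19.48 for 14042 symbols. Once sorted, the values of all libraries lie within 0.0304 of the median library, the lowest percentile aside, as quantile normalization leaves them; this fixes each library's distribution and hides its depth.

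A linear model with a mean per group was fitted to all genes and libraries with limma 3.58.1 (R 4.3.3), with trend and robust switched on, leaving 4 residual degrees of freedom, and no pseudocount was added. It was tested on simulated data. Groups follow the labels, and replicate numbers are names only, in accession order. For 2 against 2 libraries the smallest two-sided p of an exact permutation test is 0.33. The 5 comparisons are TFH against naive and KO against WT, each within the other factor, and their interaction.

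The RGS genes and gene lists were chosen with earlier results of these data known. By rule, all members are named, with up to 3 called genes per pathway list and genotype, and for each riser the 3 genes with the highest r among genes with a mean of at least log2 8 in a group. Summed marker levels are log2 of the summed linear values. Promoter motifs were matched exactly in the 250 bases before each RefSeq start. Alternatives covered the limma settings, the samples fitted, an offset of 16, a filter at a mean of log2 6, median centring, library weights, a B cell covariate and leaving out libraries. Some genes of the lists and of the surrounding regions are not reported here by name.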

Additional observations from a re-analysis of the deposited data

How the results depend on the processing

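Across 8 genes, 5 comparisons and 12 to 16 alternatives each, 531 of 536 recomputed differences kept the side of the threshold they had, 4 lost a call, 1 gained one, and no called difference changed sign. All 5 changes concern Rgs16 and Rgs18 and are given above; the cause was not tested. The call of Rgs2 held under every alternative run in both genotypes, with differences of 2.98 to 3.07 in KO and 2.74 to 2.82 in WT, as did that of Rgs1 (1.54 to 2.17 and 1.80 to 2.04). Rgs16 ranged from 2.12 to 3.04 in KO and from 2.77 to 3.51 in WT. Depth is unknown, which limits what can be said of Rgs18, near the low end of the values.

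Counts over all genes moved more. TFH KO against naive KO gave 2744 calls, and 1225 without replicate 2 of both TFH groups; leaving out each library in turn gave 1399 to 2219. TFH WT against naive WT gave 3694, and 2104 without replicate 2 of both TFH groups; leaving out each library gave 1991 to 2501. TFH KO against TFH WT gave 0, and 1 with the compared groups only. Naive KO against naive WT gave 10, and 7 to 17 with a library left out. The interaction gave 2, 0 without the trend, and 1 to 7 with a library left out. No paired analysis was possible because the labels give no replicate numbers.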
